A study of Mus musculus with 19 samples.

Results

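Adipokines are proteins that fat cells release into blood and the surrounding tissue. The mammary gland grows within a pad of white fat, so the glandular epithelium lies next to the cells that make them. Adiponectin (Adipoq), leptin (Lep), resistin (Retn), adipsin or complement factor D (Cfd), retinol-binding protein (Rbp4) and chemerin (Rarres2) are made in quantity by mouse adipocytes. Nampt, which is released as visfatin and is also the enzyme that salvages nicotinamide into NAD within cells, and Apln, the precursor of the vascular peptide apelin, are made by many cell types.

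The 8 adipokine genes were found by their symbols among the 46078 genes of an RNA-seq table of 19 mouse samples, and all 8 had a row. The samples were 3 wild-type mammary glands, 4 N glands, 4 NP glands, 4 N tumors and 4 NP tumors. All N and NP mice carried MMTV-neu, a transgene that drives the neu (ERBB2) oncogene from a viral promoter active in mammary epithelium. NP mice carried in addition one p53wm-R172H allele, which codes for wild-type p53 until Cre recombinase converts it to the R172H mutant, and Fsp-Cre, a transgene that makes Cre in fibroblasts. The genotype of the 4 N tumors and of N gland 1 was MMTV-neu;Fsp-Cre, and that of N glands 2 to 4 was MMTV-neu;p53wm-R172H/+ with no Cre. Thus 3 of 4 N glands differed from the NP glands by the presence of Cre as well as by mutant p53, and these cannot be told apart there. The 4 N tumors likewise differed from those 3 N glands by Cre and by the p53 allele as well as by tissue. The same limit holds wherever N tumors are compared with N glands. N and NP glands came from tumor-bearing females and held no malignant lesion, and wild-type glands came from age-matched mice. The transgenic mice had a mixed FVB/C57/BALB/c background, and that of the wild type is not given in the sources used here. Ages are not given, and NP tumors 1 and 2 carry the same animal number in their library names. The comparisons ask how each adipokine differs between glands of tumor-bearing and wild-type mice and between tumor and gland. They also compare mice with and without mutant p53 in fibroblasts. N and NP glands differed from wild-type glands by MMTV-neu and by Fsp-Cre or the p53 allele, as well as by tumor bearing. The wild-type libraries also carry names of a separate series. These cannot be told apart wherever N or NP glands are compared with wild-type glands. The table shows no base changes, so the p53 allele itself could not be checked.

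Depth was 54677315 to 62645459 reads on genes in the wild-type glands and 20899152 to 27262440 in the other 16 libraries. The wild-type glands also stood apart in their cells. Plin1, the coat protein of the fat droplet, ranged from 7.68 to 22.0 normalized counts there against 16550 to 23465 in N glands, and Cidec, which fuses fat droplets, from 9.38 to 26.9 against 19958 to 37734. The mean log2 level of 10 white adipocyte markers, here called the white adipocyte score, was 7.75 to 8.28 in wild-type glands, 13.89 to 14.15 in N glands, 12.82 to 14.08 in NP glands, 5.32 to 9.17 in N tumors and 7.11 to 7.97 in NP tumors. The label of mammary gland held for the wild type by its epithelial markers, with a luminal score of 12.74 to 13.07, but Plin1 and Cidec were nearly absent. Other genes of fat storage on the marker list were present at lower levels than in N glands, such as the lipase Pnpla2, at 2035 to 2566 against 15166 to 20473 normalized counts, and Plin4, at 290.9 to 517 against 53687 to 88228. In bulk tissue, fewer fat cells and less RNA per fat cell cannot be told apart. NP glands held skeletal muscle transcripts, with a muscle score of 9.05 to 17.09 against 4.15 to 9.82 in N glands, and NP gland 4 held brown fat transcripts, with a summed level of 77967 normalized counts over 5 markers against 1585 to 4508 in the other NP glands.

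The promoters of 4 members are shown. Of these, Adipoq, Cfd and Lep were high where fat transcripts were high, and Nampt was far less variable. The pattern of Apln, which was highest in tumors, is not among them. Each run covers 250 bases before and 50 after the annotated start, read along the gene's strand from RefSeq on GRCm38.p6, where 7 of 8 members had an entry. Capitals mark matches, on either strand, to the CCAAT box (CCAAT), a C/EBP site (TTNNGCAA), the TATA box (TATAAA), a nuclear receptor site (AGGTCA) or the core of the hypoxia response element (ACGTG).
Adipoq, chr16:23146286-23146585, + strand: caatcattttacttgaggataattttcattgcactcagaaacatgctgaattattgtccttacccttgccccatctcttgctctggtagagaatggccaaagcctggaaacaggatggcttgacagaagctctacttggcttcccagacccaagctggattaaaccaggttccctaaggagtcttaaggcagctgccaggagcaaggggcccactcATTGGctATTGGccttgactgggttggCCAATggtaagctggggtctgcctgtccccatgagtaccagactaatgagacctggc
Cfd, chr10:79890603-79890902, + strand: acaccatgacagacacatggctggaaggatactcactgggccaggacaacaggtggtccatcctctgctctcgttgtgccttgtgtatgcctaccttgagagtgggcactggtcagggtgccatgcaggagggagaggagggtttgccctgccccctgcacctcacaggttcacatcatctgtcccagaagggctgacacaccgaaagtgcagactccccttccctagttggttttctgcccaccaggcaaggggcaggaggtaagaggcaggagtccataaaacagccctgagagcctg
Lep, chr6:29059971-29060270, + strand: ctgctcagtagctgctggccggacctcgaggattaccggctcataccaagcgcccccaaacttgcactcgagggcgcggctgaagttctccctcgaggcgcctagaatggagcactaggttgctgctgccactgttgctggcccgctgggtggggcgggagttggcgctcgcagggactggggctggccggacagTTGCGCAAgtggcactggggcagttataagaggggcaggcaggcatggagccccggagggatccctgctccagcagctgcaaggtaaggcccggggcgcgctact
Nampt, chr12:32820085-32820384, + strand: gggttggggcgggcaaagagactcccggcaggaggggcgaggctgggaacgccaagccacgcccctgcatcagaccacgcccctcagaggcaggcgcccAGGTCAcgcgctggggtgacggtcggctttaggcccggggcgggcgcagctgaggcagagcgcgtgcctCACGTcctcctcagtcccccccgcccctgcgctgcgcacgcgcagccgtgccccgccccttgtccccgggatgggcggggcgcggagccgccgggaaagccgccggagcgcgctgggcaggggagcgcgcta

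Adipoq held 3 CCAAT boxes within the last 34 bases before its start, and a CCAAT box lay in 37.4% of all 32851 promoters. Lep held 1 C/EBP site that began 55 bases before its start, a match present in 10.8% of promoters. Nampt held 1 nuclear receptor site and 1 hypoxia response core, found in 16.3% and 19.6% of promoters, and Cfd held none of the 5 motifs. Base composition set the 4 apart more than motifs did. The Adipoq window held no CpG and the Cfd window 2, against 19 in Lep and 36 in Nampt, where the median promoter had 7. These matches are descriptions of the letters only.

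**Figure D1:**
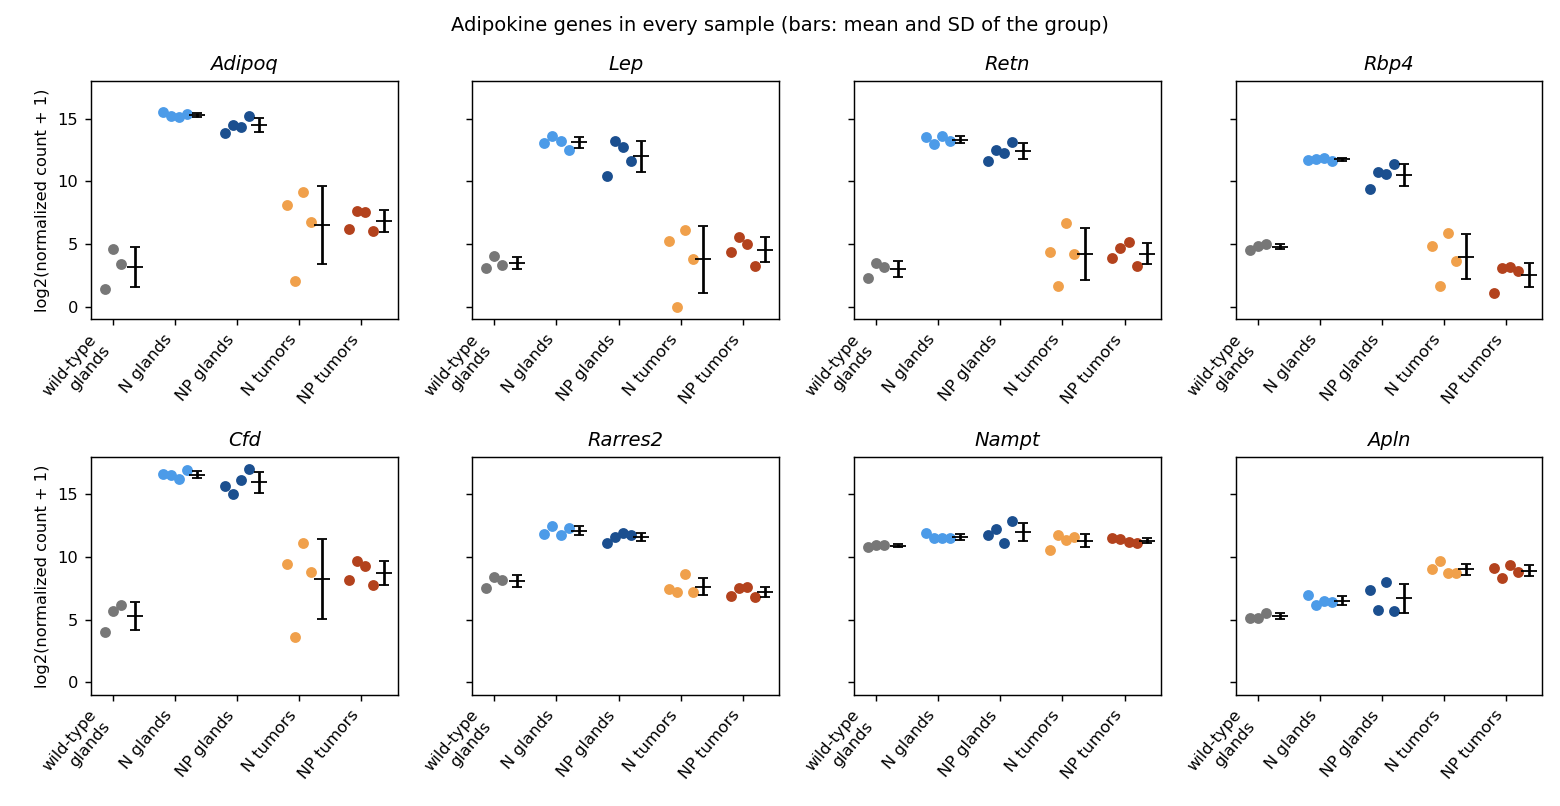
Level of each adipokine gene in every sample, as log2(normalized count + 1) on the vertical axis, with samples grouped on the horizontal axis and black bars for the mean and SD of each group. There are 6 genes that sit high in N and NP glands and low in wild-type glands and tumors, Nampt stays within a narrow band, and Apln is highest in tumors.

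Adipoq, whose product sensitizes liver and muscle to insulin, lies on chr16:23146536-23158028 (ENSMUSG00000022878). Its level was 1.71, 23.4 and 9.82 normalized counts in the 3 wild-type glands, against 47029, 38360, 36543 and 41765 in the N glands. In NP glands it was 14468, 23459, 21051 and 38749 normalized counts. Every gland of a tumor-bearing mouse lay far above every wild-type gland, and among NP glands only gland 4 reached the N range. Gland 4 was also the NP gland with brown fat transcripts. It held the highest Retn, Rbp4 and Cfd of the NP glands as well, but not the highest Lep or Rarres2. The part of brown fat in these levels was not tested. In tumors Adipoq was 282, 3.16, 556 and 110 normalized counts in the N mice and 72.9, 194, 184 and 63.7 in the NP mice. Tumors and glands of tumor-bearing mice did not overlap, and N tumor 2 fell to the level of the wild-type glands. The log2 fold change, on the scale of log2(normalized count + 1), was 12.15 ± 0.62 (SE) for N against wild-type glands and 11.32 ± 0.70 for NP against wild-type glands, with adjusted p = 3.38e-06 and 8.14e-05 by limma. It was -8.79 ± 1.30 for N tumors against N glands and -7.64 ± 0.44 for NP tumors against NP glands, with adjusted p = 8.43e-04 and 8.84e-06 by limma. Without N tumor 2 the first of these was -7.30.

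Lep, the satiety hormone that signals the size of fat stores, lies on chr6:29060220-29073877 (ENSMUSG00000059201). Wild-type glands had 7.68, 15.1 and 9.30 normalized counts and N glands 8741, 12635, 9372 and 5802. NP glands had 1377, 9355, 6783 and 3236. Lep was the most uneven of the fat genes among NP glands, with the highest 6.79-fold above the lowest, and unlike Adipoq it was not highest in NP gland 4. N tumors had 36.4, 0, 67.7 and 12.8 normalized counts and NP tumors 20.2, 45.1, 31.2 and 8.74. Both kinds of tumor overlapped the wild-type glands and lay far below all glands of tumor-bearing mice. A count of 0 in N tumor 2 allows up to 3 reads, which covers counting error only. Lep rose by 9.61 ± 0.29 (log2, SE) in N and by 8.50 ± 0.64 in NP glands over the wild type, and its log2 fold change from gland to tumor was -9.33 ± 1.14 in N and -7.45 ± 0.66 in NP mice, with adjusted p between 4.41e-07 and 3.61e-04 by limma. Without N tumor 2 the change in N mice was -8.07.

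Retn, a small cysteine-rich hormone that opposes insulin in mice, lies on chr8:3655770-3660110 (ENSMUSG00000012705). It had 3.84, 10.3 and 8.27 normalized counts in wild-type glands and 11737, 8151, 12450 and 9571 in N glands. NP glands had 3157, 5968, 4955 and 8987, so that only gland 4 reached the N range. Tumors of N mice had 19.3, 2.11, 99.98 and 17.5 normalized counts, and those of NP mice 13.5, 24.4, 35.1 and 8.74. The log2 fold change was 10.34 ± 0.29 and 9.40 ± 0.42 in N and NP glands over the wild type, and -9.12 ± 0.87 and -8.15 ± 0.45 in tumors against glands, with adjusted p between 3.67e-07 and 1.36e-04 by limma.

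Rbp4, which carries retinol in blood, lies on chr19:38116629-38125281 on the minus strand (ENSMUSG00000024990). Wild-type glands had 22.6, 27.3 and 31.0 normalized counts, N glands 3303, 3498, 3818 and 3189, and NP glands 663, 1696, 1502 and 2741. N tumors had 27.3, 2.11, 58.6 and 11.7, and NP tumors 1.12, 7.32, 7.79 and 6.24. Rbp4 was the only member whose N and NP glands did not overlap, and it was also the only member whose NP tumors all lay below the wild-type glands. It rose by 6.96 ± 0.15 in N and 5.72 ± 0.44 in NP glands over the wild type (log2, SE) and its log2 fold change was -7.75 ± 0.77 and -7.99 ± 0.57 in tumors against glands, with adjusted p between 1.26e-07 and 1.81e-04 by limma.

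Cfd, the serine protease that starts the alternative complement pathway by cutting factor B, lies on chr10:79890853-79892655 (ENSMUSG00000061780). It was the most abundant member per length in glands of tumor-bearing mice, with a mean of 107989 normalized counts per kb of exon in N and 78659 in NP glands. Its level was 15.4, 50.3 and 71.3 normalized counts in wild-type glands, 101717, 96111, 77524 and 122912 in N glands, and 50961, 33000, 70823 and 135309 in NP glands. NP gland 4 exceeded every N gland and the other NP glands lay below every N gland. N tumors had 704, 11.6, 2173 and 447 normalized counts, and NP tumors 286, 830, 633 and 215. Cfd rose by 11.29 ± 0.45 and 10.66 ± 0.62 in N and NP glands over the wild type (log2, SE), and its log2 fold change was -8.33 ± 1.34 and -7.22 ± 0.53 in tumors against glands, with adjusted p between 1.38e-06 and 0.00121 by limma. Without N tumor 2 the change in N mice was -6.80.

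Rarres2, whose product chemerin attracts macrophages and dendritic cells, lies on chr6:48569696-48572789 on the minus strand (ENSMUSG00000009281), where it overlaps Lrrc61 on the opposite strand. Whether counting used strand is not given in the sources used here, so reads of the pair may be mixed. Wild-type glands had 182, 348 and 296 normalized counts, N glands 3741, 5745, 3485 and 4995, and NP glands 2194, 3140, 3804 and 3551. N tumors had 178, 151, 401 and 145, and NP tumors 118, 187, 194 and 112. Rarres2 was highest in the same 2 groups as the fat hormones, and tumors overlapped wild-type glands. The log2 fold change was 4.04 ± 0.26 and 3.54 ± 0.28 in N and NP glands over the wild type, and -4.46 ± 0.33 and -4.38 ± 0.25 in tumors against glands, with adjusted p between 8.84e-06 and 1.85e-04 by limma.

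Nampt lies on chr12:32819545-32853349 (ENSMUSG00000020572) and overlaps the lincRNA Gdap10 on the same strand. How reads of overlapping genes were counted is not given in the sources used here, so reads of this pair may be mixed too. It had 1787, 1997 and 2047 normalized counts in wild-type glands, 3824, 2943, 2871 and 2897 in N glands, and 3475, 4852, 2269 and 7585 in NP glands. N tumors had 1545, 3387, 2629 and 3128, and NP tumors 2914, 2755, 2421 and 2189. Every N and NP gland exceeded every wild-type gland, while tumors and glands overlapped. The log2 fold change was 0.68 ± 0.13 in N glands, under the 2-fold limit with adjusted p = 0.00247, and 1.09 ± 0.37 in NP glands, with adjusted p = 0.0459, both by limma. The NP call was lost when any wild-type gland, or NP gland 1, 2 or 4, was left out, with log2 fold changes of 0.80 to 1.17 and adjusted p of 0.053 to 0.13 by limma. The 3 NP glands with the highest Nampt were also those with the highest muscle score, 14.19, 17.09 and 16.43 in glands 1, 2 and 4 against 9.05 in gland 3. Gland 4, with the highest Nampt of all samples, was also the gland with brown fat transcripts. Over the 19 samples Pearson's r of Nampt with the muscle score was 0.65, and 0.243 after each group's mean was taken off. Adjusted for the muscle score, the NP glands stood at -0.84 against the wild type, with adjusted p = 0.307 by limma. The muscle score was 3.17 to 3.4 in wild-type glands and 9.05 to 17.09 in NP glands. Muscle content and group thus cannot be told apart in this fit. Nampt did not pass the test between tumors and glands, at -0.28 ± 0.25 in N and -0.69 ± 0.33 in NP mice, with adjusted p = 0.363 and 0.102 by limma.

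Apln lies on chrX:48025146-48034853 on the minus strand (ENSMUSG00000037010). Its product is released by sprouting vessels and acts on the receptor Aplnr of endothelial cells. It had 33.7, 34.2 and 46.5 normalized counts in wild-type glands, 127, 70.1, 87.3 and 84.5 in N glands, and 161, 54.2, 251.3 and 51.7 in NP glands. N tumors had 517, 802, 414 and 427 normalized counts, and NP tumors 555, 326, 642 and 440. Every tumor exceeded every gland, and Apln was the only member for which this held. Apln rose in tumors by 2.52 ± 0.28 in N and by 2.19 ± 0.52 in NP mice (log2, SE), with adjusted p = 2.43e-04 and 0.00731 by limma. Adjusted for the muscle score, the value in NP mice was 0.71, with adjusted p = 0.44 by limma. The muscle score was 3.58 to 8.73 in NP tumors and 9.05 to 17.09 in NP glands. Muscle content and tissue thus cannot be told apart in that fit. The mean log2 level of 8 endothelial markers was lower in tumors, at 8.58 to 9.38 against 10.35 to 11.28 in N and NP glands, and 7 of the 8 were lower in every tumor than in every such gland. The exception was Esm1, a marker of sprouting tip cells, which went the way of Apln. It had 218 to 599 normalized counts in N tumors against 30.9 to 178 in N glands, and 151 to 500.0 in NP tumors against 31.0 to 70.4 in NP glands. The part of vessel content in the level of Apln was not tested. Apln also rose in N glands over the wild type, by 1.24 ± 0.27 with adjusted p = 0.00467 by limma. In NP glands the value was 1.43 ± 0.59 with adjusted p = 0.0824 by limma, and it passed the test without NP gland 4, at 1.76 with adjusted p = 0.0434. With the muscle score as a covariate Apln was at 1.17 in N and 4.57 in NP glands, with adjusted p = 0.0942 and 0.0201 by limma. That score also separated N and NP glands from wild-type glands, so these values have the same limit.

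**Figure D2:**
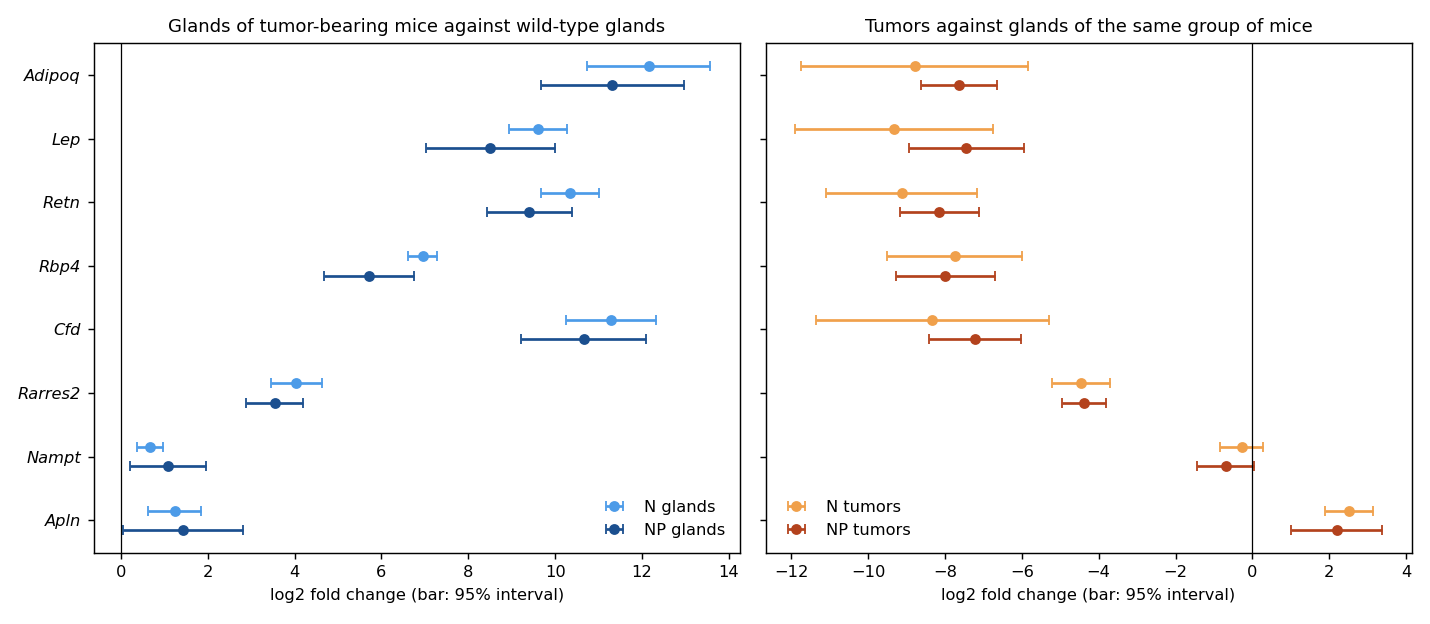
Log2 fold change of each member, with its 95% interval on the horizontal axis, for glands of tumor-bearing against wild-type mice (left) and tumors against glands (right). On the left the values run from 0.68 for Nampt in N glands to 12.15 for Adipoq, and on the right 6 genes lie at or below -4.38 while Apln lies above 0.

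Across the 8 members, 7 rose in N glands over wild-type glands, where 37% of the 19017 genes tested were called and 19.1% were called higher. Nampt was the exception. In NP glands 7 of 8 rose as well, against 32.6% called and 16.4% called higher among 19065 genes, and here the exception was Apln. The median log2 fold change of the members was 8.28 and 7.11 in the N and NP comparison, against 0.02 for all genes in both. Ranges did not overlap for 8 of 8 members in either comparison, against 61.3% of all genes in N and 54.4% in NP glands. The comparisons share the wild-type glands, of which gland 1 was lowest and gland 2 highest for Adipoq. Without gland 1 or gland 2 Adipoq was at 11.29 or 12.88 in N and at 10.46 or 12.05 in NP glands, and Cfd without gland 1 at 10.66 and 10.02.

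In tumors against glands, 6 members fell and Apln rose in N mice, where 35.1% of genes were called, 22.3% lower and 12.8% higher. The same 6 members fell and Apln rose in NP mice, where 38.7% were called, 24% lower and 14.7% higher. Ranges did not overlap for 7 of 8 members in either, against 49.2% of all genes in N and 52.6% in NP mice. The median log2 fold change of the members was -8.04 and -7.33, against -0.05 and -0.07 for all genes. White adipocyte markers moved with the 6 members in both comparisons, with all 10 lower in every tumor than in every N or NP gland. N tumor 3 was the highest of its group for the 6 members and N tumor 2 the lowest for all of them but Rarres2, which was lowest in N tumor 4. Without N tumor 2 the log2 fold change of Retn was -8.26 and that of Rbp4 -6.96, and without N tumor 3 Adipoq, Lep, Retn, Cfd and Rbp4 were at -9.65, -10.10, -9.94, -9.28 and -8.38. Fitting the white adipocyte score as a covariate left 0 of 8 members called in each of these 4 comparisons. The score itself separated the groups compared. In tumors against glands the part of fat content thus cannot be told apart from tissue. In N and NP against wild-type glands it cannot be told apart from genotype and tumor bearing.

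No member was called between NP and N glands, where limma called 0% of 18563 genes. By limma 3 members, Retn, Adipoq and Rbp4, had an unadjusted p under 0.05, as did 10.5% of all genes, and edgeR and DESeq2 also called 0 of 8, while DESeq2 called 2.78% of all genes. The log2 fold changes were -1.23 ± 0.37 for Rbp4, -1.10 ± 0.56 for Lep, -0.94 ± 0.31 for Retn, -0.83 ± 0.29 for Adipoq, -0.63 ± 0.43 for Cfd, -0.50 ± 0.23 for Rarres2 and 0.41 ± 0.33 for Nampt, with adjusted p between 0.339 and 0.743 by limma. The 6 fat genes had lower means in NP glands, and so did the white adipocyte score, at 13.31 ± 0.54 (SD, n = 4) against 14.03 ± 0.13. Ranges did not overlap for 1 of 8 members, Rbp4, and for 6.21% of all genes. NP gland 1, with the lowest white adipocyte score of the 4 at 12.82, had the lowest Adipoq, Lep, Retn, Rbp4 and Rarres2, and without it the log2 fold changes of Rbp4, Lep and Retn were -0.85, -0.58 and -0.68.

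Between NP and N tumors 0 of 7 members tested were called by limma, by edgeR or by DESeq2, where limma called 0.0421% of 16638 genes. Of the 7, 0 had an unadjusted p under 0.05 by limma, against 7.27% of all genes. Rbp4 was below the count filter in this comparison. The ranges of the 2 kinds of tumor were apart for 0 of 7 members tested, against 4.21% of all genes, and Rbp4 overlapped too. N tumors were the more uneven, with Adipoq spanning 176-fold among N tumors and 3.05-fold among NP tumors, and N tumor 2 was lowest for Adipoq, Lep, Retn, Cfd, Rbp4 and the white adipocyte score. For Adipoq the log2 difference of NP from N tumors was 0.31 ± 1.34, and it was -1.18 without N tumor 2, so no direction can be given. The 95% interval of the log2 difference was -1.26 to 0.41 for Rarres2. An interaction of tissue and genotype was tested over 16 samples and called 0 of 8 members by limma, edgeR or DESeq2, with 0% of 19367 genes called by limma. An unadjusted p under 0.05 was met by 0 members and by 7.93% of all genes.

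**Figure D3:**
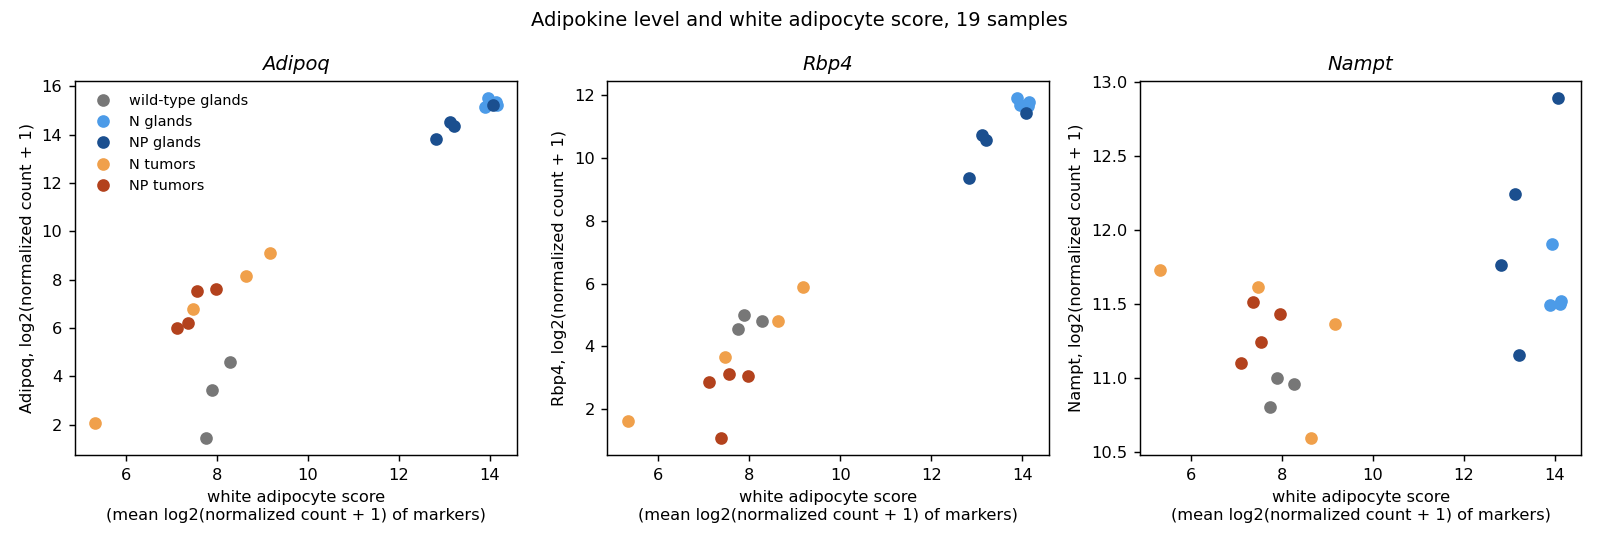
Adipoq, Rbp4 and Nampt in the 19 samples, as log2(normalized count + 1) on the vertical axis, against the white adipocyte score on the horizontal axis. Adipoq and Rbp4 follow the score, wild-type glands lie below tumors of the same score for Adipoq and not for Rbp4, and Nampt shows no such course. The score averages markers that differ in opposite directions between wild-type glands and NP tumors.

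Members differed in how closely they followed the white adipocyte markers, none of which is a member. Pearson's r with the score over the 19 samples was 0.95 for Adipoq, 0.952 for Cfd, 0.979 for Rarres2, 0.983 for Lep and Rbp4 and 0.984 for Retn, but 0.50 for Nampt and -0.50 for Apln. The samples share their tissue groups, and after each group's mean was taken off, r was 0.938 for Adipoq, 0.939 for Cfd, 0.884 for Retn, 0.871 for Rbp4, 0.866 for Lep, 0.616 for Rarres2, -0.134 for Nampt and -0.437 for Apln. At like scores the level of Adipoq relative to the score was lower in wild-type glands than in tumors. A like score did not mean like markers, however. Plin1 and Cidec were lower in wild-type glands than in NP tumors, with Plin1 at 7.68 to 22.0 against 31.2 to 92.7 normalized counts. Fabp4, Lipe, Aqp7 and Pparg were higher there, with Lipe at 788.5 to 1298 against 284.5 to 455.2. Values relative to the score are thus not levels per fat cell. The log2 value of Adipoq minus the score was -6.31 to -3.67 in wild-type glands, -3.26 to -0.05 in N tumors and -1.17 to -0.01 in NP tumors. That of Rbp4 was -3.46 to -2.89 in wild-type glands, -3.82 to -3.27 in N tumors and -6.29 to -4.26 in NP tumors, so that N tumors overlapped wild-type glands and NP tumors did not. The lowest value was that of NP tumor 1, which rested on 1 read, and the other NP tumors reached down to -4.92. In wild-type glands Rbp4 was thus above Adipoq per length, at a mean of 20.1 against 8.44 normalized counts per kb, and in N tumors below it, at 18.5 against 172. These are descriptions with no test.

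Per kb of exon, the mean order in N glands was Cfd (107989), Adipoq (29634), Retn (6635), Lep (2724), Rbp4 (2570), Rarres2 (1691), Nampt (620.1) and Apln (29.3 normalized counts per kb). Among neighbours in this order, only the ranges of Lep and Rbp4 overlapped. Nampt headed the order in wild-type glands, at 385 normalized counts per kb, followed by Rarres2 at 104. In tumors Cfd and Nampt led, with means of 905 and 529 per kb in N and 532 and 508 in NP tumors, and their ranges overlapped in both. The 8 genes together took 0.59% to 0.79% of all reads in N glands, 0.24% to 0.58% in NP glands, 0.012% to 0.023% in N tumors, 0.011% to 0.016% in NP tumors and 0.0077% to 0.0094% in wild-type glands.

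The genes whose levels ran most nearly alongside each member over the 19 samples, among 20392 genes, differed by member. For Adipoq they were Cfd (r = 0.9955), Cidec and Car3, and for Cfd they were Adipoq, Cidec and Pck1. For Lep they were Nnat (r = 0.9916), Retn and Car3, and for Retn A530016L24Rik (r = 0.9949), Ces1f and Slc7a10. For Rbp4 they were Nat8l (r = 0.993), Fabp4 and Nnmt, and for Rarres2 Fabp4 (r = 0.9887), Trarg1 and Nnmt. For Nampt they were mt-Co1 (r = 0.9079), a subunit of respiratory complex IV, Cyc1, a subunit of respiratory complex III, and Idh3a, an enzyme of the citric acid cycle. With group means taken off r was 0.888, 0.826 and 0.851 for these 3. For Apln the nearest were the histone genes Hist1h4d (r = 0.9607) and Hist1h2be, and Pycard, for which r fell to 0.684, 0.575 and 0.783 once group means were taken off.

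**Figure D4:**
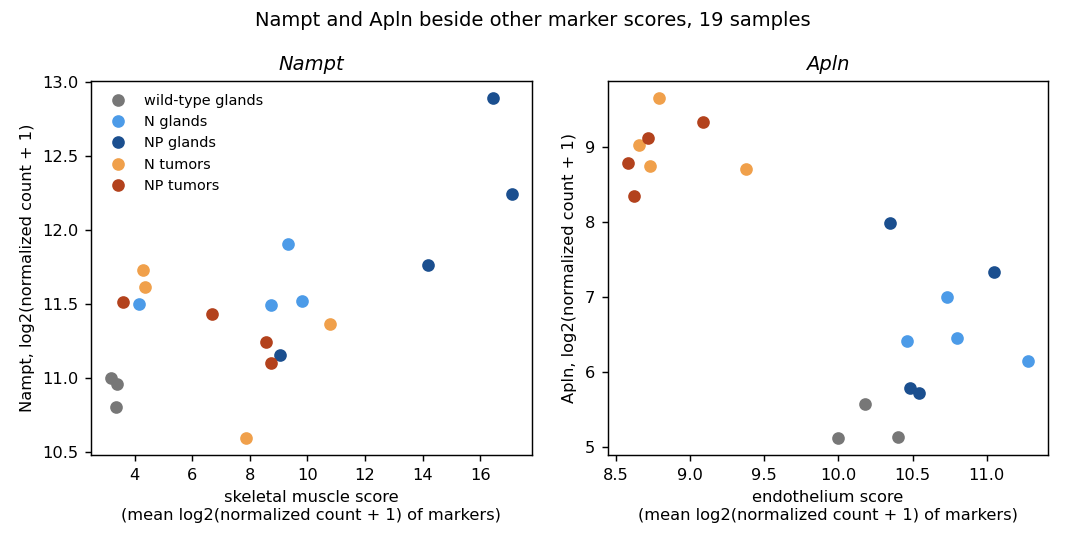
Nampt against the skeletal muscle score (left) and Apln against the endothelium score (right) in the 19 samples, all as log2 levels. The 2 NP glands with the highest muscle scores hold the highest Nampt, and tumors combine the highest Apln with the lowest endothelium scores.

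Receptors and binding partners of the adipokines were read from a list of 12. In tumors against glands 7 fell and 1 rose in N mice, where 22.3% of all genes tested were called lower and 12.8% higher. The same counts held for the same genes in NP mice, where the shares of all genes were 24% and 14.7%. With the white adipocyte score as a covariate none of these 8 genes kept its call in either genotype by limma, with Lepr at -0.82 in N mice and adjusted p = 0.673. All 10 white adipocyte markers were lower in tumors as well, and fat content and tissue cannot be told apart for them either. Among receptors of adiponectin, Adipor2 had 19601 to 27759 normalized counts in N glands and 4244 to 5805 in N tumors, with a log2 fold change of -2.27 ± 0.18, and -1.35 ± 0.28 in NP mice. Adjusted for the muscle score, the value in NP mice was -1.24, with adjusted p = 0.0964 by limma, where the score itself separated NP tumors from NP glands. Adipor1, the form prominent in muscle, did not pass in either, at 0.79 ± 0.16, under the 2-fold limit, and 0.55 ± 0.27. Cdh13, the cadherin that holds adiponectin on vessels and muscle, fell in both, at -2.38 ± 0.29 and -2.46 ± 0.27 on the log2 scale. The adjusted p of the calls for Adipor2 and Cdh13 lay between 6.77e-05 and 0.00396 by limma.

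Lepr, the leptin receptor, ranged from 422 to 1159 normalized counts over N and NP glands and from 26.3 to 99.0 over tumors, with no overlap. Its log2 fold change was -3.81 ± 0.44 in N and -3.43 ± 0.31 in NP mice. Of the 3 chemerin receptors, Cmklr1 and Gpr1 fell in tumors, at -3.18 ± 0.34 and -4.19 ± 0.48 on the log2 scale in N mice and at -2.29 ± 0.18 and -4.25 ± 0.54 in NP mice. Ccrl2, which binds chemerin without signaling and presents it to other cells, rose by 1.56 ± 0.30 and 1.02 ± 0.21. In NP mice its fold was under 2 without NP gland 2 or 3 or NP tumor 2 or 4, down to a log2 value of 0.88. Stra6, a retinol-binding protein receptor, fell, at -3.75 ± 0.83 and -2.62 ± 0.50. All these calls had an adjusted p of at most 0.00565 by limma.

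Aplnr, the apelin receptor, moved against its ligand. It had 471 to 2107 normalized counts in N glands and 93.8 to 644 in N tumors, and the log2 fold change was -1.90 ± 0.61 with adjusted p = 0.0293 by limma. The call was lost without N gland 1, 2 or 3 or N tumor 2 or 4, at -1.97 to -1.42 with adjusted p of 0.0519 to 0.0764 by limma. In NP mice it was -1.35 ± 0.39 with adjusted p = 0.016 by limma. Of the 8 endothelial markers, 7 were lower in tumors and Esm1 was higher, as given for Apln. Adjusted for the muscle score, Aplnr was at -1.21 in NP mice, with adjusted p = 0.208 by limma, where the score itself separated NP tumors from NP glands.

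**Figure D5:**
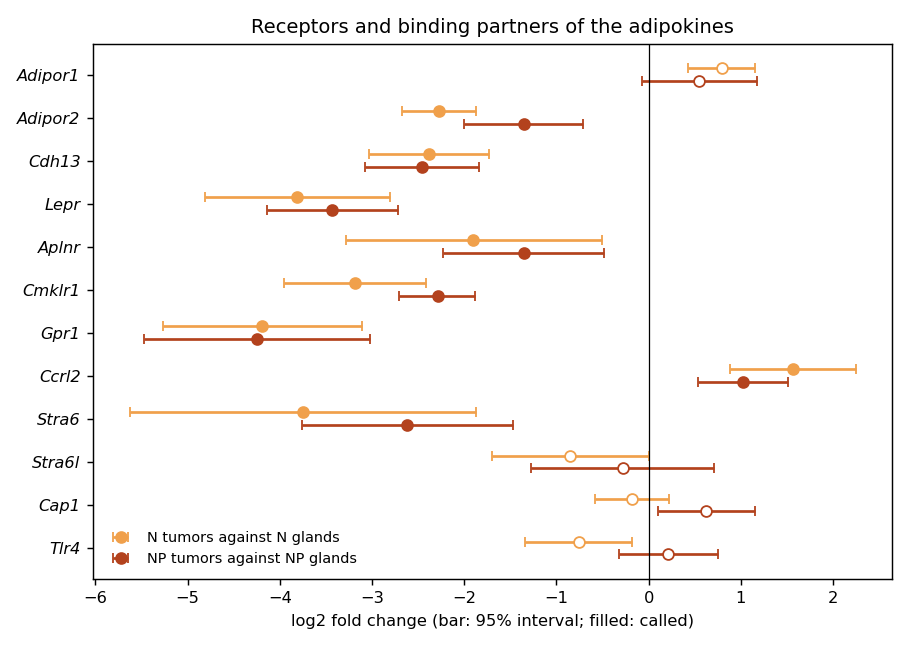
Log2 fold change between tumors and glands of 12 receptors and binding partners, with 95% intervals on the horizontal axis and filled points for those called. There are 7 called genes to the left in both genotypes, and Ccrl2 is the only called gene to the right.

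Against wild-type glands 3 of 12 receptors rose in both N and NP glands, where 19.1% and 16.4% of all genes were called higher. Lower calls were 3 and 2 of 12, against 17.9% and 16.2% of all genes. Adipor2 rose by 2.99 ± 0.16 and 2.37 ± 0.27 (log2, SE), Cmklr1 by 2.02 ± 0.20 and 1.33 ± 0.17, and Gpr1 by 1.97 ± 0.38 and 1.82 ± 0.42, while Ccrl2 fell in both, at -2.25 ± 0.17 in N glands. The adjusted p of these lay between 3.76e-06 and 0.0112 by limma. None of these calls held with the white adipocyte score as a covariate. With the muscle score as a covariate Gpr1 lost its call in N and NP glands, at 1.01 and 0.27, and Adipor2 in NP glands, at 1.42, with adjusted p = 0.168, 0.86 and 0.138 by limma. The muscle score too separated the groups compared here, so muscle content and group cannot be told apart. Stra6 was also lower in both and Stra6l, a second retinol-binding protein receptor, in N glands. No receptor was called between NP and N glands or between NP and N tumors. An unadjusted p under 0.05 by limma was met by 2 of 12 in glands and 1 of 10 tested in tumors. Among all genes 10.5% and 7.27% met it.

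The other partners were read from 8 further lists, which with the receptors held 59 genes. In tumors against glands, 22 of the 59 fell and 6 rose in N mice with 53 tested, against 22.3% of all genes lower and 12.8% higher. In NP mice 22 fell and 7 rose with 52 tested, against 24% lower and 14.7% higher. The share that rose was thus near that of all genes in both. The alternative complement pathway, which Cfd starts, had 4 of 5 genes lower in N and 3 of 5 in NP tumors. C3, its central component, fell in both, at -4.41 ± 0.53 and -4.81 ± 0.30 on the log2 scale. Of the NAD genes around Nampt, 2 of 8 fell in N tumors, a share near the 22.3% of all genes, and 3 of 8 in NP tumors, against 24%. Among them was Nnmt, which methylates nicotinamide, at -5.76 ± 0.66 and -5.60 ± 0.45. Of the resistin family 2 of 2 genes tested fell in N tumors and 1 of 1 in NP tumors. Retnla, made by fat and by alternatively activated macrophages, fell in both, at -6.63 ± 1.06 and -5.21 ± 0.48, and it was higher by 8.32 ± 0.38 and 7.35 ± 0.27 in N and NP than in wild-type glands. The adjusted p of these calls was at most 0.00117 by limma.

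Of 18 other secreted factors of fat 15 were tested in each comparison of tumors with glands, and 7 fell and 3 rose in N tumors, and 6 fell and 3 rose in NP tumors, beside the shares of all genes given above. Nrg4, a ligand released by fat for ERBB receptors, had 1577 to 2699 normalized counts in N glands and 3.16 to 62.6 in N tumors, with a log2 fold change of -6.76 ± 0.72, and -5.56 ± 0.34 in NP mice, and adjusted p = 2.06e-04 and 1.21e-05 by limma. Lcn2, an iron-scavenging lipocalin that epithelium and neutrophils also make, went the other way, from 1319 to 17915 normalized counts in N glands to 100264 to 182776 in N tumors. Its log2 fold change was 5.56 ± 0.74 in N and 5.42 ± 0.48 in NP mice, with adjusted p = 5.18e-04 and 5.46e-05 by limma. In tumors against glands 35.1% of all genes were called in N and 38.7% in NP mice. The short lists held too few genes for a share to be compared with these. Adiponectin assembly had 1 of 3 genes higher in N tumors and 1 higher and 1 lower in NP tumors, leptin receptor signaling 0 of 4 and 1 of 4 higher, retinol carriers 1 of 2 tested higher in each, and the apelin system 0 and 1 of 2 tested lower.

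Against wild-type glands, 20 of the 59 rose and 6 fell in N glands, where 19.1% of all genes were called higher and 17.9% lower. In NP glands 16 rose and 6 fell, against 16.4% higher and 16.2% lower, and 53 were tested in each. The share of the lists that fell was below that of all genes in both. The complement list had 4 and 3 of 5 genes higher, the NAD list 2 and 2 of 8, the resistin family 2 and 1 of 2 tested, and other secreted factors 6 and 4 higher and 0 and 1 lower of 15 tested. Leptin receptor signaling had 3 and 2 of 4 genes lower, among them Socs3, an inhibitor of the receptor, and Stat3, its main transcription factor. Adiponectin assembly and retinol carriers had 1 gene higher in each, and the apelin system 1 higher in N glands and 1 higher and 1 lower in NP glands. Between NP and N samples 0 of the 59 were called by limma in glands, in tumors or in the interaction, with 5 of 53, 4 of 49 and 7 of 53 tested at an unadjusted p under 0.05. Among all genes 10.5%, 7.27% and 7.93% had such a p. The shares of the lists were near these in glands and in tumors, and above that of all genes in the interaction.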

How the data were processed

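RNA of 19 mouse samples in 5 groups was sequenced. The sample records name a total RNA library kit and the study's methods an mRNA kit, with 75-bp read pairs aligned to GRCm38 by TopHat2 (2.1.1) and Bowtie2. The counting tool, annotation and strand setting are not given in the sources used here. The signal deposited by the authors is 1 table of DESeq2-normalized counts, whose values are whole multiples of a step per library. Reads recovered from that step (tolerance 0.05) were whole for 100% of values. GENCODE vM21 gave names and positions for 97.97% of the rows.

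Log2(normalized count + 1) was fitted with limma (3.58.1, trend) on the 2 groups compared, for genes that reached 10 normalized counts in a number of samples no lower than the smaller group's size. A call needed a Benjamini-Hochberg adjusted p under 0.05 and a change of 2-fold or more. The script was tested on simulated data. edgeR (4.0.16), DESeq2 (1.42.0), other filters, pseudocounts, covariates and left-out samples were alternatives. Members, lists and tests were chosen with earlier results of these data known. All members, receptors and partners called at least once, and the 3 genes nearest each member in Pearson's r could be named.

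Replicate numbers come from the sample titles. No gland shares its animal number with a tumor in the library names, and no pairing was used. At most 1 of 4 pairs with the same replicate number per comparison had a correlation of deviations over 0.1. Such a correlation cannot by itself settle whether samples are paired. The study calls the samples of a group biological replicates, but 2 NP tumors share an animal number. If these came from 1 animal, p-values that count the NP tumors as 4 separate samples can be too small. With NP tumors 1 and 2 averaged, 7 of 8 members were called in NP tumors against NP glands.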

Additional observations from a re-analysis of the deposited data

Results flagged for a closer look

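The lowest and highest sample of each group of 4 was compared with its neighbour for the 8 members, on the log2 scale, in 32 sets of values. A gap over Dixon's 95% critical share of the group's range was met 2 times, and chance gives about 1 in 20 such sets. Nampt in N gland 1 stood above the other N glands, at 3824 normalized counts against 2871 to 2943, with a gap of 0.913 of the range. N gland 1 is also the only N gland with Fsp-Cre and without the p53 allele, and the part of genotype was not tested. Rbp4 in NP tumor 1 stood below the other NP tumors, at 1.12 normalized counts against 6.24 to 7.79, with a gap of 0.864 of the range, where the single library held fewer than 3 reads. The interaction of tissue and genotype called 0 of 8 members by limma.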

How the results depend on the processing

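The count of members called held under every alternative but one within 1.5 times. With the white adipocyte score as a covariate, 0 members were called in N against wild-type glands, 0 in NP against wild-type glands, 0 in N tumors against N glands and 0 in NP tumors against NP glands, and the score separated the groups in all 4. Under the other alternatives the counts were 6 to 8, and leaving out single samples gave 6 to 7 in NP against wild-type glands, 7 to 7 in the other 3 comparisons and 0 to 0 in NP against N. Of 773 member values under the other alternatives 749 kept direction and call. A fit with the replicate block, which does not rest on any pairing in the labels, gave 7 members in each of the first 4 comparisons and 0 in the rest. In it Nampt lost its call in NP against wild-type glands (0.80) and Apln gained one (1.76), as it did by edgeR (1.78), DESeq2 (1.77) and the fit of all 5 groups (1.43). Nampt also lost this call with TMM scaling of the libraries (1.07) and with no filter on low values (1.09). The adjusted p was 0.0507 and 0.0552 by limma.

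With the white adipocyte covariate the sign of these log2 fold changes turned. Against wild-type glands they were -12.14 for Adipoq, -0.78 for Cfd, -6.68 for Rarres2 and -1.02 for Cmklr1 in N glands, and -3.43 for Nampt, -0.77 for Rbp4 and -1.71 for Adipor2 in NP glands. In tumors against glands they were 2.76 for Adipoq, 0.65 for Lep, 3.42 for Cfd, 2.19 for Aplnr, -0.09 for Ccrl2 and 1.31 for Retnla in N mice, and 0.17 for Adipoq, 2.36 for Cfd, 3.65 for Nampt, -3.50 for Apln, 2.57 for Adipor2, 2.25 for Nnmt and -2.75 for Lcn2 in NP mice. Cfd was 0.33 in NP against N glands. None of these was called. Of 38 values of receptors and partners 28 kept their sign and lost their call under this covariate, and 8 turned. The muscle score as a covariate turned Nampt to -0.84 in NP against wild-type glands, 0.06 in NP tumors against NP glands and -0.38 in NP against N glands. It ended the call of Apln in N against wild-type glands (1.17) and in NP tumors (0.71) and gave Apln a call in NP against wild-type glands (4.57, adjusted p = 0.0201 by limma). It also ended the calls of Gpr1 in N and NP glands, of Adipor2 in NP glands and NP tumors and of Aplnr in NP tumors, and gave Adipor1 one in NP tumors (1.28). Except in NP against N glands, the muscle score separated the groups compared in these fits. Muscle content and group cannot be told apart there. Adipoq in NP against N tumors was -0.90 by edgeR and -0.91 by DESeq2, and -1.18 to 1.18 with single samples left out. The cause was not tested. Over all genes, limma, edgeR and DESeq2 called 0%, 0% and 2.78% in NP against N glands, 0.0421%, 0% and 0.515% in NP against N tumors and 0%, 0% and 1.65% in the interaction. At 20899152 reads or more, Lep, Retn and Rbp4 in tumors rested on few reads, down to 0. Adipoq rested on 3 reads in N tumor 2 and 4 in wild-type gland 1, and Cfd on 11 in N tumor 2. In wild-type glands Lep had 18 to 31 reads and Retn 9 to 21.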
